A study of Homo sapiens with 6 samples.

Results

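The genes described here encode the classical axon guidance ligands and their receptors: the semaphorins SEMA3 to SEMA7, plexins, neuropilins, ephrins, Eph receptors, Slits, Robo receptors, netrins, and the netrin receptors DCC, NEO1 and UNC5A to UNC5D. They were taken by gene name alone, as the protein-coding members of these 9 families. All 69 were found among the 64252 rows of the count table, and 60 had enough counts to be tested, of 18734 genes tested in all. RNA was sequenced in bulk from SK-N-BE(2), a human neuroblastoma cell line with amplified MYCN, in 6 libraries. The 2 control libraries carried a control short hairpin RNA (labelled shControl and shNC), 2 carried hairpin 1 (shBCAT1#1) and 2 carried hairpin 2 (shBCAT1#2). Both BCAT1 hairpins target the cytosolic enzyme that transfers the amino group of branched-chain amino acids. No other allele, drug or treatment is named, all groups share the same parental line, and the vector, the selection and the time after knockdown are not stated in the labels.

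Axon guidance cues are secreted or membrane-bound proteins that steer growing neurites and migrating cells, including the neural crest cells from which neuroblastoma arises. Class 3 semaphorins are secreted and bind neuropilins, which signal through A-type plexins, whereas most membrane-bound semaphorins bind plexins directly. Ephrin-A ligands are anchored by a lipid and ephrin-B ligands span the membrane, and both act on Eph receptor tyrosine kinases of touching cells. Slits bind Robo receptors and usually repel, and netrins attract through DCC and neogenin or repel through UNC5 receptors.

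Promoter sequences are shown for 5 members on which the results below turn. EPHB4, EFNB1 and NRP2 were lower with each hairpin, and EFNB2, the ligand of EPHB4, and PLXNA2 were high with hairpin 1 alone. Each is the 250 bases upstream of RefSeq's transcription start, 5′ to 3′ on the strand of the gene, on GRCh38.p14. The windows are EPHB4 at chr7:100827524-100827773 (- strand), EFNB1 at chrX:68828771-68829020 (+ strand), NRP2 at chr2:205682251-205682500 (+ strand), EFNB2 at chr13:106535663-106535912 (- strand) and PLXNA2 at chr1:208244385-208244634 (- strand). Capitals mark the GC box GGGCGG on either strand, the core of the sites bound by Sp1-type factors, and overlapping matches run together. GENCODE 29 places exons of the same gene over 24 bases of the EFNB1 window and 1 base of the NRP2 window, and over none of the others.
EPHB4: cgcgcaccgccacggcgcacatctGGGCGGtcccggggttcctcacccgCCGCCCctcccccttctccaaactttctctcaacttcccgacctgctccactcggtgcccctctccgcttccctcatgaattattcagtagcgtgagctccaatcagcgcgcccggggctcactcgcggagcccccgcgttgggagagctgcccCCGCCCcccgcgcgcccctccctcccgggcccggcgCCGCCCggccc
EFNB1: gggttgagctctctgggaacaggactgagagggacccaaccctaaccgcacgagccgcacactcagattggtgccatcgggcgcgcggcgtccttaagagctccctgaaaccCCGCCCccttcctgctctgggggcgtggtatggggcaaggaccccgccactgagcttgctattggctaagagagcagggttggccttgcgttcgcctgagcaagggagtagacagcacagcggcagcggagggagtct
NRP2: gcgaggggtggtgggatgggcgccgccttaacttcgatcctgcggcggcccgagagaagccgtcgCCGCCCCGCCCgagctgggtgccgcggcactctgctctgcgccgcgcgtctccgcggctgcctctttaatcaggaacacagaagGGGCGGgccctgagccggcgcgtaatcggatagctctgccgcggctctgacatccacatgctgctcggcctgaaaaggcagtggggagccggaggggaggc
EFNB2: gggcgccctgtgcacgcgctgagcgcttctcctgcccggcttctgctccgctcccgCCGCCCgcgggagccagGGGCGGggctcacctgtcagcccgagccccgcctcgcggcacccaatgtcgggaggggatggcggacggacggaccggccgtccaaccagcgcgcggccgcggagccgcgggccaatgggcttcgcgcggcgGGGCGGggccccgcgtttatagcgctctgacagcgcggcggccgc
PLXNA2: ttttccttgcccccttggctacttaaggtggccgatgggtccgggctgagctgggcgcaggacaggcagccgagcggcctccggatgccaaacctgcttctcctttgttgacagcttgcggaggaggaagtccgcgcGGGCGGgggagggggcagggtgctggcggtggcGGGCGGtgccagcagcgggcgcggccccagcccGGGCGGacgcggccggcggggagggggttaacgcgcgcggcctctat
The E-box CACGTG, which MYC family proteins bind and which reads the same on both strands, was searched too and is in none of these 5 windows. The GC box occurred 4 times upstream of EPHB4, 1 time upstream of EFNB1, and 3 times upstream of each of the other genes. RefSeq windows were matched for 59 of the 69 members, with 91 windows in all because some genes have several starts. A GC box was present in 64 of them (70.3%), against 53.7% of 22199 windows of protein-coding genes and 42.6% of all 35116 windows. An E-box was present in 4 member windows (4.4%), against 7.4% for protein-coding genes and 6.3% for all windows. Of the windows of members called lower over both hairpins, 23 of 28 (82.1%) held a GC box, against 6 of 15 (40.0%) for those called higher, and the transcripts of these members differed in GC content too, as given below. These matches describe the letters in the windows and no binding was measured.

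Total counts ran from 32333416 to 39321388 per library, and the members took 0.277% to 0.289% of them. Levels are given as CPM (counts per library scaled to a common size, after TMM normalization), in which a gene's 3 counts correspond to 0.0743 to 0.0925 CPM. BCAT1 stood at 459 and 476 CPM in the control libraries, 55.8 and 55.3 with hairpin 1, and 116 and 111 with hairpin 2. Every library thus matched its label as control or knockdown. Both hairpins target BCAT1, so its level cannot check which hairpin a library carried. MYCN was also lower with both hairpins (log2 fold change -0.34, adjusted p = 9.5e-05). Adrenergic neuroblastoma markers had summed levels of 1644 to 1671 CPM in the control, 1558 to 1642 with hairpin 1 and 1160 to 1169 with hairpin 2, with 2 called higher and 4 lower over both hairpins. The 8 mesenchymal markers summed to 6974 to 7004, 6985 to 7391 and 5290 to 5477 CPM in the same order, with 1 called higher and 3 lower. Of the 5 endothelial markers PECAM1, CDH5 and TEK were under 1 CPM in each library, VWF ran from 6.04 to 7.32 and EMCN from 57.3 to 80.8 CPM, and their summed level was 64.2 to 67.9 CPM in the control, 87.3 to 87.8 with hairpin 1 and 69.8 to 75.4 with hairpin 2. Among blood cell markers CD3E was at 0, PTPRC and LYZ were under 1 CPM and CD14 ran from 2.33 to 4.84 CPM. The 5 Schwann cell markers, of which SOX10 was at 0, summed to 1.818 to 2.999 CPM over all libraries. All 7 fibroblast markers were called lower on the average of the hairpins. Their summed levels were 1280 to 1281 CPM in the control, 806 to 808 with hairpin 1 and 895 to 896 with hairpin 2. THY1 was the highest of them, at 634.5 and 657.5 CPM in the control libraries. COL1A1 was not lower with hairpin 2, at 235.7 and 241.5 CPM against 245 and 216.8 in the control libraries. The part of these marker genes in the results below was not tested.

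Compared per length (CPM per kilobase of exon, mean ± SD of the 2 control libraries), receptors led the ranking. UNC5B, a repulsive netrin receptor, was highest at 48.5 ± 2.13, followed by PLXNB2, a receptor for class 4 semaphorins, at 27.9 ± 0.573. EPHA2, a receptor for ephrin-A ligands, stood at 24.0 ± 0.0593, the ligand EFNB1 at 22.2 ± 0.593, EPHB4, the receptor for ephrin-B2, at 22.0 ± 0.833, and the netrin receptor UNC5C at 20.6 ± 0.200. EFNB1 and EPHB4 did not differ beyond their SDs. Of the 69 members, 10 had a mean CPM of at least 100 in the control, 32 of at least 10 and 50 of at least 1, while 19 were under 1. The 9 untested genes were EPHA3, EPHA4, EPHA5, EPHA6, EPHA7, EPHA8, EPHA10, DCC and NTN1, whose 6 libraries summed to between 2 and 36 counts. Thus DCC, the attractive netrin receptor, had 2 counts in all, and NTN1, the best-known netrin, had 15. Differences in these genes were not detectable at this depth.

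**Figure D1:**
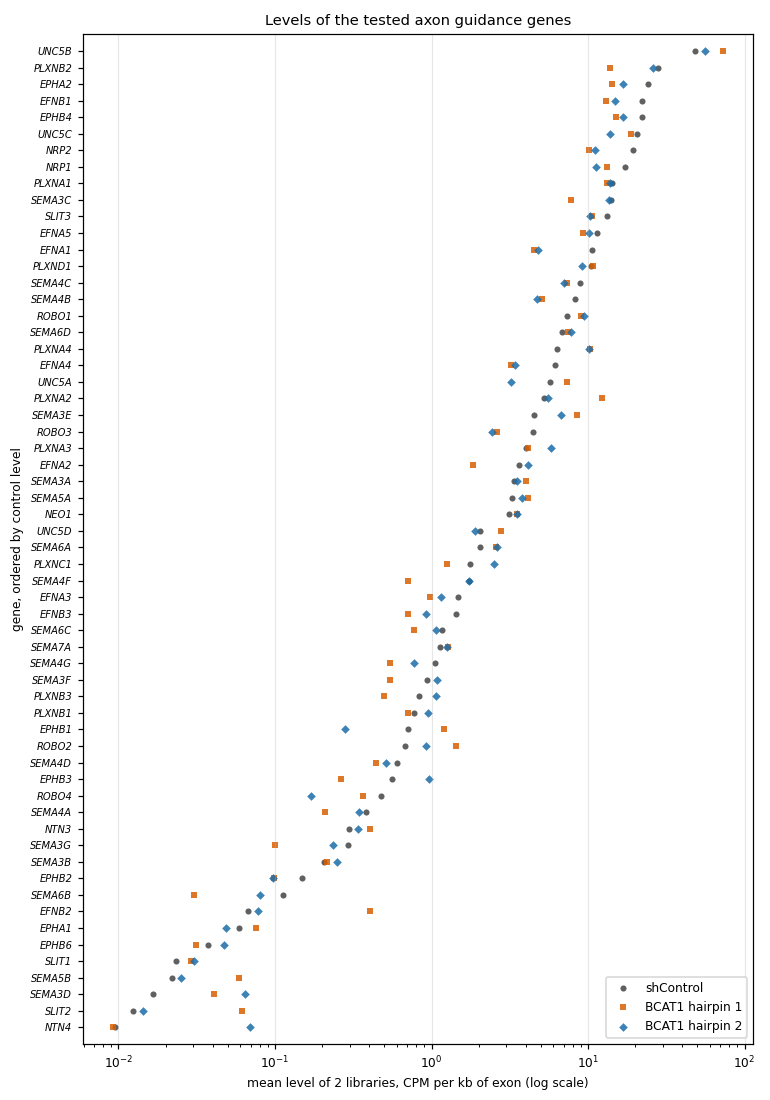
Mean level of the 60 tested genes in each group (2 libraries each), in CPM per kilobase of exon on a log scale, ordered by the control. UNC5B leads at 48.5 in the control, and the tested genes run from 0.00952 (NTN4) to that level.

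Against the control, more ligands were lower than higher. Over both hairpins together, 37 of the 60 tested members passed an adjusted p of 0.05 (edgeR quasi-likelihood test, Benjamini-Hochberg over all genes), 13 higher and 24 lower. The same call was made for 50.0% of all tested genes (23.6% higher and 26.4% lower) and 58.2% of protein-coding ones, so the share of members called lay near that of protein-coding genes. The median log2 fold change of the members was -0.20, against -0.01 over all tested genes. Of 33 ligands, 7 were higher and 15 lower, with a median of -0.31, and of 27 receptors 6 were higher and 9 lower, with a median of -0.08. In these bulk libraries, fewer cells expressing a gene and less RNA per cell cannot be told apart.

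More members were called with hairpin 1 than with hairpin 2. With hairpin 1, 43 members were called (14 higher and 29 lower), beside 49.1% of all tested genes (24.2% higher and 24.9% lower) and 57.6% of protein-coding ones. With hairpin 2, 30 were called (13 higher and 17 lower), beside 49.3% of all tested genes (23.9% higher and 25.4% lower) and 57.5% of protein-coding ones. Of the ligands, 6 higher and 19 lower were called with hairpin 1 and 5 higher and 7 lower with hairpin 2. The receptors gave 8 higher and 10 lower with each. In a test against a fold of 1.5, 6 members passed over both hairpins (beside 5.55% of all tested genes), 13 with hairpin 1 (beside 9.44%) and 7 with hairpin 2 (beside 7.46%). The 6 were EFNA1, NRP2, ROBO3 and SEMA4B among the lower ones, and PLXNA4 and SEMA3E among the higher ones. Both contrasts use the same control libraries, so their calls are not independent.

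GC content differed between the members called higher and lower. The 24 lower members had a median transcript GC content of 58.9%, near the 58.4% of all tested members. The 13 higher ones had a median of 47.1%. With a correction for GC content and length, 33 members were called over both hairpins, 7 higher and 26 lower, and the median was -0.13. Of the 37 calls, 26 held in the same direction and 2, SEMA3A and SEMA6D, turned to the opposite one. Among protein-coding genes, 5279 of 8101 calls held and 306 turned. EPHB2, UNC5D, PLXNA1, PLXNC1 and SEMA7A were called with the correction alone. Values with it are given below for these 5, and for members called over both hairpins whose call it ended or turned or whose value it moved by more than 1.5 times.

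**Figure D2:**
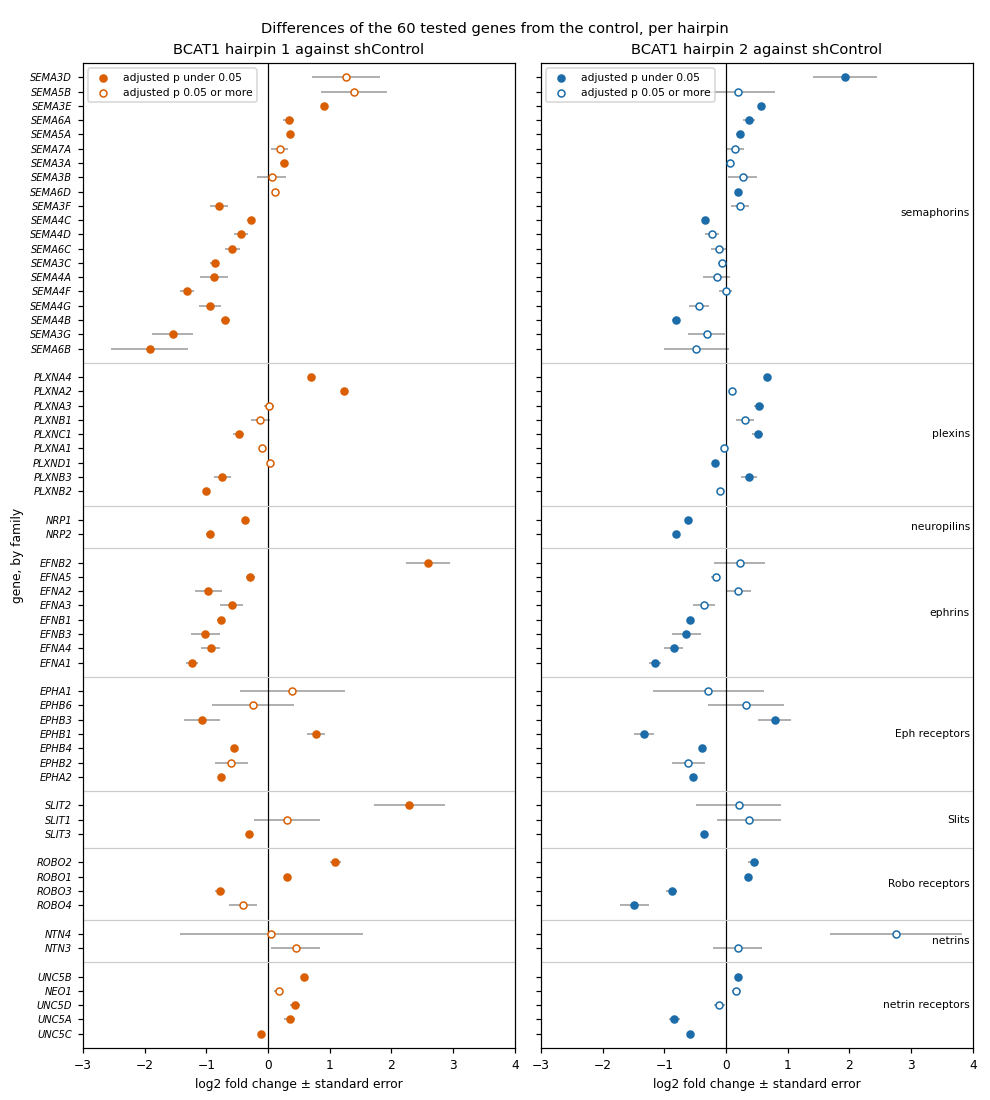
Log2 fold change against the control for each of the 60 tested genes, with hairpin 1 on the left and hairpin 2 on the right, grouped by family. Bars are standard errors, filled points have an adjusted p under 0.05, and 7 of 8 ephrins were lower with hairpin 1.

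Of the 8 ephrin genes, 6 were called lower and 1 higher over both hairpins, beside 26.4% lower and 23.6% higher among all tested genes, and their median log2 fold change was -0.57. With hairpin 1 the counts were 1 higher and 7 lower. With hairpin 2 they were 0 higher and 4 lower, so the share called there lay near the 49.3% of all tested genes. Their summed level was 186 and 183 CPM in the control libraries, 124 and 116 with hairpin 1, and 131 and 135 with hairpin 2. Without the first control library, only 4 ephrins were called over both hairpins, all lower. After the GC and length correction 5 were lower and 1 higher, with a median of -0.46.

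EFNA1 (ENSG00000169242, chr1:155127460-155134857, + strand), a lipid-anchored ligand of EphA receptors including EPHA2, stood at 28.2 and 25.8 CPM in the control libraries, 11.1 and 11.8 with hairpin 1, and 11.4 and 12.9 with hairpin 2. All 4 knockdown libraries lay at 12.9 CPM or less, below both controls. EFNA1 fell by 1.19 ± 0.08 on the log2 scale over both hairpins (adjusted p = 1e-05), the largest fall among members with a mean of at least 1 CPM. The hairpins differed by 0.08 (95% interval -0.15 to 0.31, adjusted p = 0.56). EFNA4 (ENSG00000243364, chr1:155063731-155069553, + strand), another EphA ligand at the same locus, stood at 8.25 and 7.38 CPM in the control libraries, 4.33 and 3.85 with hairpin 1, and 3.91 and 4.75 with hairpin 2. Its knockdown libraries again lay below both controls, and the log2 fold change was -0.89 ± 0.13 (SE), adjusted p = 0.00047. With the GC and length correction it was -0.45 (adjusted p = 0.011) over both hairpins and -0.36 (adjusted p = 0.054) with hairpin 2, where the call ended. Exons of EFNA4 overlap a gene, AL691442.1, over 15.0% of their length, and that gene had 0 to 13 counts per library.

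EFNB1 (ENSG00000090776, chrX:68828997-68842147, + strand), a membrane-spanning ligand of EphB receptors, stood at 75.0 and 72.2 CPM in the control libraries, 42.2 and 44.2 with hairpin 1, and 47.8 and 50.3 with hairpin 2. The groups did not overlap, and EFNB1 was lowest with hairpin 1. Its log2 fold change was -0.68 ± 0.05 (SE), adjusted p = 9.8e-06, and the hairpins differed by 0.18, adjusted p = 0.025. EFNB3 (ENSG00000108947, chr17:7705202-7711378, + strand), an ephrin-B known as a midline barrier for corticospinal axons, stood at 4.95 and 4.32 CPM in the control libraries, 2.86 and 1.70 with hairpin 1, and 2.95 and 2.98 with hairpin 2. Each knockdown library lay below both controls, with a wide gap between the hairpin 1 libraries. The log2 fold change was -0.83 ± 0.20 (SE), adjusted p = 0.0075, and without the first control library it was -0.73 (adjusted p = 0.057), and with the GC and length correction -0.62 (adjusted p = 0.019). With hairpin 2 it was -0.64, adjusted p = 0.046, a call that ended in 8 of 16 alternatives, among them each fit without one control or hairpin 2 library, at -0.74 to -0.55 over the fits that left out a library.

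The remaining ephrins moved less evenly. EFNA2, an EphA ligand, stood at 3.52 and 3.32 CPM in the control libraries, 2.12 and 1.36 with hairpin 1, and 4.16 and 3.70 with hairpin 2. Only the hairpin 1 libraries lay below the control, with a log2 fold change of -0.97 ± 0.22 (SE), adjusted p = 0.0067, against 0.20, adjusted p = 0.46 with hairpin 2. Corrected for GC content and length, these values were -0.41 (adjusted p = 0.15) and 0.68 (adjusted p = 0.02), and the difference between hairpins was 1.17, adjusted p = 0.0027 before it. EFNA5, the ephrin-A best known from retinal mapping, had a log2 fold change of -0.23, adjusted p = 0.016, which was -0.20 (adjusted p = 0.095) without the second control library and -0.48 (adjusted p = 4.1e-05) with the GC and length correction, which also gave a call with hairpin 2, -0.47 (adjusted p = 0.00016). EFNA3, a further EphA ligand, was at -0.47, adjusted p = 0.031, but the call ended in 9 of 15 alternatives, among them each of the 6 fits that left out a library, where it ran from -0.55 to -0.40. With the correction it was -0.06 (adjusted p = 0.78). EFNA3 shares 44.7% of its exon length with AL691442.1.

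EFNB2, the ligand of EPHB4 and a marker of arterial endothelium, was chosen after its values were seen, since its mean was under 1 CPM. It stood at 0.212 and 0.459 CPM in the control libraries, 2.04 and 2.03 with hairpin 1, and 0.372 and 0.411 with hairpin 2. Both hairpin 1 libraries lay above all the others, and the hairpin 2 libraries lay within the control range. On the log2 scale the change was 2.59 ± 0.36 (SE), adjusted p = 0.00044 with hairpin 1 and 0.22, adjusted p = 0.69 with hairpin 2, a difference of -2.37, adjusted p = 0.0007. Over both hairpins it was 1.41, adjusted p = 0.0092, and 0.95 (adjusted p = 0.065) without the first control library. Its exons overlap an opposite-strand gene, AL138689.2, over 26.2% of their length, and the use of strand in counting is not given in the sources used here.

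Among the Eph receptors, the abundant EPHA2 and EPHB4 fell, and the scarcer EPHB1 and EPHB3 were called in opposite directions with the hairpins. Only 7 of 14 had enough counts to be tested. Over both hairpins 2 of these (28.6%) were called, both lower, beside 50.0% of all tested genes and 58.2% of protein-coding ones. The family's summed level was 256 and 247 CPM in the control libraries, 167 and 168 with hairpin 1, and 183 and 189 with hairpin 2. EPHA2 (ENSG00000142627, chr1:16124337-16156087, - strand) stood at 99.8 and 100.1 CPM in the control libraries, 57.4 and 60.5 with hairpin 1, and 69.5 and 69.1 with hairpin 2. The 3 groups did not overlap, with hairpin 1 lowest. EPHA2 fell by 0.65 ± 0.04 on the log2 scale (adjusted p = 4.7e-06), and the hairpins differed by 0.23, adjusted p = 0.0027. EPHB4 (ENSG00000196411, chr7:100802565-100827521, - strand) stood at 146 and 138 CPM in the control libraries, 96.9 and 95.7 with hairpin 1, and 106 and 110.4 with hairpin 2. Here too the knockdown libraries lay below the controls, with a log2 fold change of -0.47 ± 0.04 (SE), adjusted p = 2.1e-05.

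EPHB1 (ENSG00000154928, chr3:134597801-135260467, + strand), a receptor for ephrin-B ligands, was called higher with hairpin 1 and lower with hairpin 2. It stood at 4.76 and 5.05 CPM in the control libraries, 8.54 and 8.26 with hairpin 1, and 2.18 and 1.72 with hairpin 2. The hairpin 1 libraries were highest, the hairpin 2 libraries lowest, and the controls lay between. This gave a log2 fold change of 0.78 ± 0.15 (SE), adjusted p = 0.0023 with hairpin 1 and -1.33 ± 0.16 (SE), adjusted p = 0.00018 with hairpin 2. The difference of -2.10, adjusted p = 1.4e-05 was among the 3 largest called differences, beside EFNB2 and SLIT2, the latter with at most 25 counts per library. EPHB3 (ENSG00000182580, chr3:184561784-184582409, + strand), a related receptor, showed the reverse order, at 2.62 and 2.43 CPM in the control libraries, 1.52 and 0.863 with hairpin 1, and 3.57 and 5.17 with hairpin 2. The fitted log2 fold change was -1.07, adjusted p = 0.016 with hairpin 1 and 0.79, adjusted p = 0.039 with hairpin 2. The hairpin 1 call was -1.01 (adjusted p = 0.057) without the first control library and -0.72 (adjusted p = 0.082) without the second hairpin 1 library. The hairpin 2 call ended in 6 of 16 alternatives, among them the fits without either control library (0.84 with adjusted p = 0.096 and 0.73 with adjusted p = 0.13) and without the second hairpin 2 library (0.50 with adjusted p = 0.25). The difference between hairpins held in each alternative.

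EPHB2, EPHA1 and EPHB6 did not pass in any of the 4 contrasts without a correction. EPHB2, an ephrin-B receptor, had a log2 fold change of -0.60, adjusted p = 0.057 over both hairpins, and -0.87 (adjusted p = 0.027) without the second control library. Corrected for GC content and length, EPHB2 was called lower, at -0.76 (adjusted p = 0.021) over both hairpins, -0.76 (adjusted p = 0.041) with hairpin 1 and -0.76 (adjusted p = 0.043) with hairpin 2. EPHA1 and EPHB6, the latter without kinase activity, were under 1 CPM in every library, at log2 fold changes of 0.05 and 0.04.

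Semaphorins moved in both directions, and all 6 class 4 genes fell with hairpin 1. All 20 genes were tested, and over both hairpins 6 higher and 8 lower were called, with a median of -0.30. Among all tested genes 23.6% were called higher and 26.4% lower. With hairpin 1, 4 higher and 11 lower were called, beside 24.2% higher and 24.9% lower among all tested genes. With hairpin 2, 5 higher and 2 lower were called (35% of the family), beside 49.3% of all tested genes. The summed level was 429.9 and 444 CPM in the control libraries, 410.4 and 409.8 with hairpin 1, and 438 and 435 with hairpin 2. SEMA4B (ENSG00000185033, chr15:90160604-90229679, + strand), a membrane-bound class 4 semaphorin, stood at 59.2 and 56.2 CPM in the control libraries, 34.3 and 37.2 with hairpin 1, and 34.2 and 31.6 with hairpin 2. Its knockdown libraries lay below both controls, and the hairpins were not called apart (log2 difference of -0.12, adjusted p = 0.2). In log2 terms it differed by -0.75 ± 0.06 (SE), adjusted p = 1.7e-05. SEMA4G (ENSG00000095539, chr10:100969518-100985871, + strand), of the same class, stood at 5.05 and 5.94 CPM in the control libraries, 3.20 and 2.50 with hairpin 1, and 3.91 and 4.19 with hairpin 2. The log2 fold change of -0.69 ± 0.14 (SE), adjusted p = 0.004 was called over both hairpins and with hairpin 1 (-0.94, adjusted p = 0.0021) and not with hairpin 2 (-0.44, adjusted p = 0.059). Exons of SEMA4G overlap MRPL43 on the opposite strand in part, and overlaps with all genes cover 27.4% of their length. MRPL43, a mitochondrial ribosomal protein gene, had 1524 to 2535 counts per library.

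SEMA4F (ENSG00000135622, chr2:74654228-74683853, + strand), another class 4 member, stood at 10.9 and 10.9 CPM in the control libraries, 4.28 and 4.50 with hairpin 1, and 11.3 and 10.4 with hairpin 2. The hairpin 1 libraries lay below all the others, and the hairpin 2 libraries lay at the control level. The log2 fold change was -1.31 ± 0.11 (SE), adjusted p = 2.5e-05 with hairpin 1 and -0.01, adjusted p = 0.97 with hairpin 2. The value over both hairpins, -0.66, averages these, and the hairpins differed by 1.30, adjusted p = 2.9e-05. SEMA4C was lower with each hairpin, at -0.28, adjusted p = 0.0052 and -0.34, adjusted p = 0.0021, and with the GC and length correction its values were -0.13 (adjusted p = 0.073) and -0.10 (adjusted p = 0.13), and -0.12 (adjusted p = 0.063) over both. SEMA4D, the ligand of PLXNB1, was at -0.34, adjusted p = 0.018, which was -0.29 (adjusted p = 0.11) without the first control library and -0.31 (adjusted p = 0.051) without the second hairpin 1 library. SEMA4A was called lower with hairpin 1 (-0.87, adjusted p = 0.013, and -0.67 with adjusted p = 0.083 without the first hairpin 1 library). Of the 6 class 4 genes, 2 were called lower with hairpin 2 as well, beside 25.4% of all tested genes.

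Among the secreted class 3 semaphorins, SEMA3E rose with each hairpin, and SEMA3C and SEMA3G fell with hairpin 1. SEMA3E (ENSG00000170381, chr7:83363238-83649113, - strand), which binds PLXND1 without a neuropilin, stood at 37.1 and 39.3 CPM in the control libraries, 72.5 and 71.1 with hairpin 1, and 57.5 and 55.4 with hairpin 2. All knockdown libraries lay above the controls, and the groups did not overlap. Its log2 fold change was 0.74 ± 0.05 (SE), adjusted p = 7.8e-06. With the GC and length correction it was 0.30 (adjusted p = 0.0002) over both hairpins, 0.56 (adjusted p = 4.8e-06) with hairpin 1 and 0.04 (adjusted p = 0.47) with hairpin 2. SEMA3C stood at 84.4 and 92.5 CPM in the control libraries, 51.0 and 45.9 with hairpin 1, and 86.2 and 83.3 with hairpin 2. The hairpin 1 libraries lay below the others, with a log2 fold change of -0.87, adjusted p = 1.4e-05, against -0.06, adjusted p = 0.46 with hairpin 2, and the hairpins differed by 0.81, adjusted p = 2.3e-05. With the correction the hairpin 2 value was -0.43 (adjusted p = 3.9e-05) and that over both hairpins -0.76 (adjusted p = 2.8e-07). SEMA3G (ENSG00000010319, chr3:52433053-52445085, - strand) stood at 1.46 and 1.46 CPM in the control libraries, 0.387 and 0.616 with hairpin 1, and 1.36 and 0.976 with hairpin 2, and was lowest with hairpin 1. On the log2 scale the change was -1.55 ± 0.33 (SE), adjusted p = 0.0043 with hairpin 1. Over both hairpins it was -0.93, adjusted p = 0.017, and -0.94 (adjusted p = 0.071) and -0.93 (adjusted p = 0.068) without the first or second control library.

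SEMA3F (ENSG00000001617, chr3:50155045-50189075, + strand), a ligand of NRP2, stood at 4.60 and 4.43 CPM in the control libraries, 2.50 and 2.71 with hairpin 1, and 4.96 and 5.58 with hairpin 2. It was low with hairpin 1 alone, at -0.79 ± 0.15 (SE), adjusted p = 0.0023, and differed between the hairpins by 1.01, adjusted p = 0.00064. After the GC and length correction its hairpin 2 value was 0.46 (adjusted p = 0.02), a call in the other direction. SEMA3A, the prototype ligand of NRP1, was at 0.17, adjusted p = 0.035 over both hairpins and at -0.31 (adjusted p = 0.00048) with the GC and length correction, the opposite call. SEMA3A also lost its call without the first control library (0.12 with adjusted p = 0.25) and in fits without the first hairpin 1 library or either hairpin 2 library, with a range over the fits that left out a library of 0.12 to 0.21. SEMA3D rested on 4 and 6 counts in the control libraries, with a log2 fold change of 1.59, adjusted p = 0.023 that ended in 7 of 14 alternatives. It was 1.19 (adjusted p = 0.086) with the correction. Calls also ended without either control library (1.32 with adjusted p = 0.15 and 1.92 with adjusted p = 0.063), without the second hairpin 1 library (1.43 with adjusted p = 0.069) and without the first hairpin 2 library (1.51 with adjusted p = 0.073). SEMA3B, a further class 3 member, did not pass in any contrast (0.17).

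Of the 7 members of classes 5 to 7, 4 were called over both hairpins, near the 58.2% of protein-coding genes and 50.0% of all tested genes. SEMA5A and SEMA6A were higher over both hairpins, at 0.29, adjusted p = 0.0014 and 0.35, adjusted p = 0.0059, and with the GC and length correction at -0.11 (adjusted p = 0.076) and 0.14 (adjusted p = 0.12). With hairpin 2, SEMA5A was called higher at 0.22 (adjusted p = 0.011) and, with the correction, lower at -0.21 (adjusted p = 0.0083). SEMA6D was at 0.16, adjusted p = 0.015 and at -0.14 (adjusted p = 0.0087) with the correction, the opposite call. Its call was also lost without the first control library (0.11 with adjusted p = 0.13) and the first hairpin 1 library (0.14 with adjusted p = 0.05). SEMA6C, a transmembrane semaphorin, was at -0.35, adjusted p = 0.024 and -0.22 (adjusted p = 0.093) with the correction, and lost its call in 7 of 15 alternatives, among them the fits without the first or second control library (-0.30 with adjusted p = 0.14 and -0.40 with adjusted p = 0.056), the second hairpin 1 library (-0.33 with adjusted p = 0.06) or the first hairpin 2 library (-0.33 with adjusted p = 0.066). SEMA6B, under 1 CPM, was called with hairpin 1 (-1.92, adjusted p = 0.032). That call ended in 6 of 15 alternatives, among them each fit without one control or hairpin 2 library and the fit without the first hairpin 1 library, and over the fits that left out a library it ran from -3.17 to -1.19. SEMA5B and SEMA7A did not pass, at 0.80 and 0.17. After this correction SEMA7A was called higher, at 0.38 (adjusted p = 0.027) over both hairpins and 0.40 (adjusted p = 0.04) with hairpin 2, and SEMA5B with hairpin 1, at 1.49 (adjusted p = 0.048).

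Both neuropilins, the co-receptors through which class 3 semaphorins and vascular endothelial growth factor act, fell with each hairpin. NRP2 (ENSG00000118257, chr2:205681990-205798133, + strand) stood at 269 and 273 CPM in the control libraries, 142 and 138 with hairpin 1, and 161 and 147 with hairpin 2. All knockdown libraries lay below the controls. NRP2 fell by 0.88 ± 0.04 on the log2 scale over both hairpins (adjusted p = 2.6e-06). The values with hairpin 1 and hairpin 2 were -0.95 and -0.82, and their difference was 0.13 (95% interval 0.01 to 0.25, adjusted p = 0.065). NRP1 (ENSG00000099250, chr10:33177492-33336262, - strand) stood at 193 and 201 CPM in the control libraries, 151 and 152 with hairpin 1, and 132 and 125 with hairpin 2. The groups did not overlap, and hairpin 2 was lowest. This gave a log2 fold change of -0.50 ± 0.04 (SE), adjusted p = 1.6e-05, with a hairpin difference of -0.24, adjusted p = 0.0025. Corrected for GC content and length, NRP1 was at -0.76 (adjusted p = 1.1e-07).

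Plexins, the signalling receptors of semaphorins, differed between the hairpins in 7 of 9 genes, beside 46.2% of all tested genes (22.9% higher and 23.3% lower) and 54.7% of protein-coding ones. Of the 7, 5 were higher and 2 lower with hairpin 2. Over both hairpins 3 higher and 1 lower were called, beside 23.6% higher and 26.4% lower among all tested genes, and the median was 0.02. PLXNA4 (ENSG00000221866, chr7:132123332-132648688, - strand), a receptor for SEMA3A, was called higher with each hairpin and stood at 105 and 103 CPM in the control libraries, 169 and 169 with hairpin 1, and 164 and 168 with hairpin 2. All knockdown libraries lay above the controls. The fitted log2 fold change was 0.69 ± 0.04 (SE), adjusted p = 3.2e-06, and the hairpins differed by -0.03 (95% interval -0.12 to 0.06, adjusted p = 0.58).

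PLXNA2 (ENSG00000076356, chr1:208022242-208244320, - strand), a receptor for class 3 and class 6 semaphorins, stood at 70.5 and 73.0 CPM in the control libraries, 170.5 and 168 with hairpin 1, and 75.3 and 77.3 with hairpin 2. Only the hairpin 1 libraries stood apart, above all the others. In log2 terms it differed by 1.24 ± 0.04 (SE), adjusted p = 4.4e-07 with hairpin 1 and 0.09, adjusted p = 0.12 with hairpin 2. PLXNB2 (ENSG00000196576, chr22:50274979-50307627, - strand) showed the reverse, at 205 and 199 CPM in the control libraries, 99.8 and 102 with hairpin 1, and 182 and 194 with hairpin 2. The hairpin 1 libraries lay below the others, with a log2 fold change of -1.003 ± 0.05 (SE), adjusted p = 1.3e-06, against -0.10, adjusted p = 0.088 with hairpin 2. The hairpins differed by -1.15, adjusted p = 3.5e-07 for PLXNA2 and by 0.90, adjusted p = 1.8e-06 for PLXNB2. PLXNA3, another class 3 semaphorin receptor, was higher with hairpin 2 alone (0.53, adjusted p = 0.0007, against 0.02, adjusted p = 0.85 with hairpin 1, a difference with adjusted p = 0.00099). Its call over both hairpins, 0.28, adjusted p = 0.011, was 0.20 (adjusted p = 0.097) without the second control library and 0.15 (adjusted p = 0.056) with the GC and length correction.

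PLXNB3 and PLXNC1 were called in opposite directions. PLXNB3 (ENSG00000198753, chrX:153764196-153779346, + strand), a receptor for SEMA5A, stood at 5.74 and 5.86 CPM in the control libraries, 3.71 and 3.21 with hairpin 1, and 7.33 and 7.71 with hairpin 2. Hairpin 1 libraries were lowest and hairpin 2 libraries highest, with log2 fold changes of -0.74, adjusted p = 0.0019 and 0.37, adjusted p = 0.04. The hairpin 2 call ended in 7 of 16 alternatives, among them each fit that left out a control or hairpin 2 library, and the value ran from 0.34 to 0.40 over the fits that left out a library. The difference between hairpins was 1.12, adjusted p = 0.00021. Exons of PLXNB3 overlap SRPK3 over 20.4% of their length, and SRPK3 had 0 to 5 counts. PLXNC1, the receptor of SEMA7A, stood at 17.5 and 17.3 CPM in the control libraries, 13.4 and 11.6 with hairpin 1, and 24.5 and 25.2 with hairpin 2. It followed the same order, at -0.48, adjusted p = 0.003 and 0.52, adjusted p = 0.0017, and the hairpins differed by 0.99, adjusted p = 5.2e-05, while with the GC and length correction the hairpin 2 value was 0.20 (adjusted p = 0.064) and that over both hairpins -0.27 (adjusted p = 0.0094), from 0.02 without it. PLXND1, the SEMA3E receptor, was called lower with hairpin 2 (-0.19, adjusted p = 0.0054, and -0.18 with adjusted p = 0.051 without the second hairpin 2 library). PLXNB1 and PLXNA1 were not called against the control, at 0.09 and -0.07. After correction PLXNA1 was called lower over both hairpins, -0.13 (adjusted p = 0.013), and with hairpin 1, -0.18 (adjusted p = 0.0037).

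**Figure D3:**
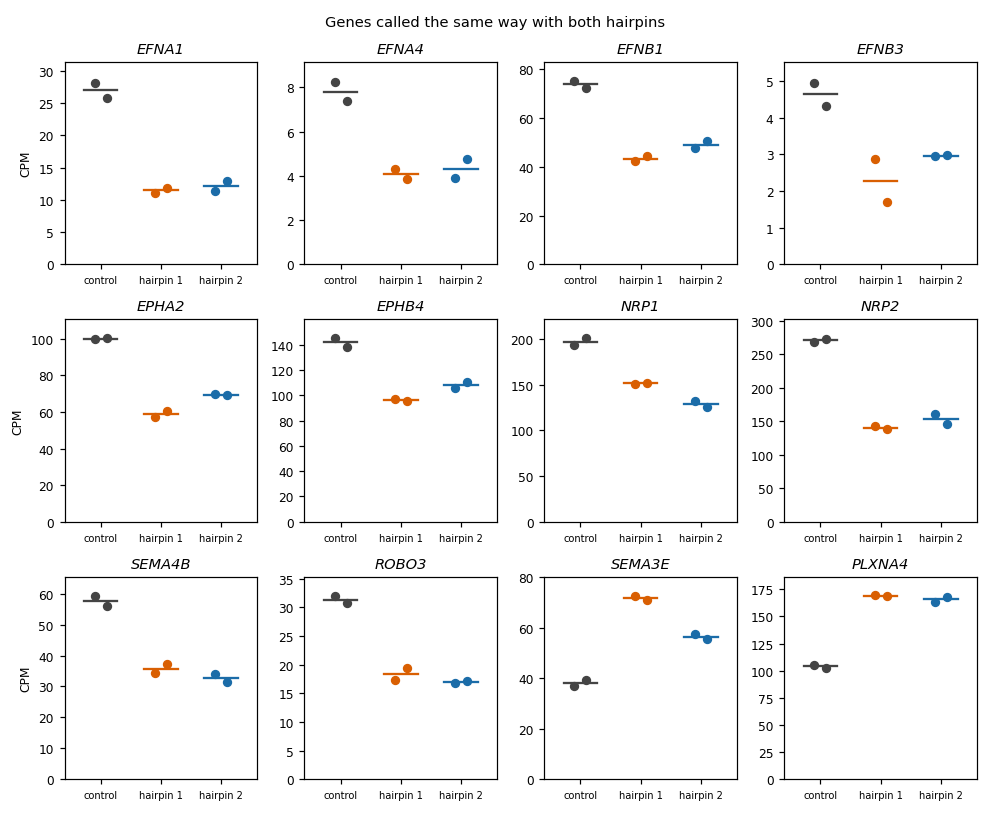
CPM in each library (points) and group mean (line) for 12 genes called in the same direction with both hairpins, on axes that start at 0. In all 12 panels the knockdown libraries lie on one side of the control libraries, above them for SEMA3E and PLXNA4 and below them for the others. The genes were picked from those called this way, which makes such a separation likely. Among all tested members, the knockdown libraries lay above both controls in 13 and below both in 24. The share over all tested genes is not given here.

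SLIT3 was the one Slit gene above 1 CPM, and the Robo receptors moved in both directions. SLIT3 stood at 189 and 185 CPM in the control libraries, 148 and 153 with hairpin 1, and 146 and 146 with hairpin 2. The knockdown libraries lay below both controls, with a log2 fold change of -0.34 ± 0.03 (SE), adjusted p = 7.5e-05. With the GC and length correction SLIT3 was at -0.52 (adjusted p = 7.2e-07). SLIT1 and SLIT2 were under 1 CPM in each library. Only the hairpin 1 libraries of SLIT2 reached 10 counts, the minimum of the filter, so SLIT2 was tested only through the group where it was high. SLIT2 had 4 and 5 counts in the control libraries, 25 and 18 with hairpin 1, and 3 and 8 with hairpin 2, and its log2 fold change with hairpin 1 was 2.29, adjusted p = 0.011. That call ended without the first control library (2.12 with adjusted p = 0.068) and without the first hairpin 1 library (2.17 with adjusted p = 0.068). SLIT1 did not pass, at 0.34.

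ROBO2 (ENSG00000185008, chr3:75906695-77649964, + strand), a repulsive Slit receptor, stood at 11.0 and 11.4 CPM in the control libraries, 24.1 and 23.6 with hairpin 1, and 14.9 and 15.6 with hairpin 2. The knockdown libraries lay above both controls, with hairpin 1 highest. Its log2 fold change was 0.77 ± 0.07 (SE), adjusted p = 5.7e-05, and 1.09 and 0.45 with hairpin 1 and hairpin 2. Corrected for GC content and length, these values were 0.24, 0.66 and -0.17 (adjusted p = 0.015, 5.6e-05 and 0.11), so the hairpin 2 direction turned and its call ended. ROBO1, its close relative, was at 0.33, adjusted p = 0.00017 and, with the correction, at 0.03 (adjusted p = 0.52).

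ROBO3 (ENSG00000154134, chr11:124865386-124881470, + strand), which acts against Slit repulsion in commissural axons, fell with each hairpin. It stood at 31.9 and 30.8 CPM in the control libraries, 17.2 and 19.4 with hairpin 1, and 16.8 and 17.2 with hairpin 2. All knockdown libraries lay below both controls, and the log2 fold change was -0.83 ± 0.07 (SE), adjusted p = 2.7e-05. ROBO4 (ENSG00000154133, chr11:124883691-124898500, - strand), the endothelial Robo, stood at 3.49 and 3.24 CPM in the control libraries, 2.27 and 2.83 with hairpin 1, and 0.966 and 1.44 with hairpin 2. Its hairpin 2 libraries were lowest. The log2 fold change was -1.49 ± 0.24 (SE), adjusted p = 0.00098 with hairpin 2 and -0.40, adjusted p = 0.18 with hairpin 1, a difference of -1.08, adjusted p = 0.0063. The summed level of the endothelial markers, given above, came mostly from EMCN, and PECAM1, CDH5 and TEK were under 1 CPM. The part of endothelial cells in this result was not tested. Annotated genes that overlap 16.9% of ROBO4's exon length had 0 counts.

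Netrin ligands were scarce and their UNC5 receptors abundant. NTN3 was between 0.378 and 0.832 CPM, and NTN4 between 0 and 0.308 CPM. Neither passed in any contrast of the main fit, at log2 fold changes of 0.32 and 1.41 over both hairpins. NTN4 had 3 and 0 counts in the control libraries, 3 and 0 with hairpin 1, and 11 and 12 with hairpin 2. Thus NTN4 was tested only because its hairpin 2 libraries, where it was high, reached the minimum count. Its hairpin 2 value was 2.76 (adjusted p = 0.062). With limma-voom and with only the groups compared, NTN4 was called with hairpin 2 and between the hairpins. The summed level of the netrin receptors was 631 and 617 CPM in the control libraries, 788 and 792 with hairpin 1, and 580.4 and 597 with hairpin 2, highest with hairpin 1. UNC5B (ENSG00000107731, chr10:71212570-71302864, + strand) stood at 342 and 322 CPM in the control libraries, 492 and 503 with hairpin 1, and 374 and 384 with hairpin 2. The groups did not overlap, and both knockdown groups lay above the control. On the log2 scale the change was 0.39 ± 0.04 (SE), adjusted p = 6.2e-05. With hairpin 1 it was 0.58 and with hairpin 2 0.19, a difference of -0.39, adjusted p = 0.00014. UNC5C (ENSG00000182168, chr4:95162504-95549206, - strand) stood at 218 and 221 CPM in the control libraries, 208 and 197 with hairpin 1, and 146 and 147 with hairpin 2. It was lowest with hairpin 2, at -0.58, adjusted p = 1.4e-05, against -0.12, adjusted p = 0.042 with hairpin 1. The hairpin 1 call ended in 9 of 16 alternatives, among them each fit without a control or hairpin 2 library or the second hairpin 1 library, and over the fits that left out a library it ran from -0.16 to -0.07. The hairpins differed by -0.47, adjusted p = 4e-05. With the GC and length correction UNC5C was at -0.76 (adjusted p = 1e-07) over both hairpins and -0.48 (adjusted p = 3e-06) with hairpin 1.

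UNC5A (ENSG00000113763, chr5:176810477-176880898, + strand), another UNC5 receptor, was called in opposite directions with the hairpins. It stood at 24.9 and 25.0 CPM in the control libraries, 31.7 and 32.1 with hairpin 1, and 12.8 and 15.1 with hairpin 2. The hairpin 1 libraries lay above the controls and the hairpin 2 libraries below them. Its log2 fold changes were 0.35 ± 0.09 (SE), adjusted p = 0.01 and -0.84 ± 0.09 (SE), adjusted p = 0.00011, and the hairpin difference was -1.19, adjusted p = 1.6e-05. The value over both hairpins, -0.24, adjusted p = 0.028, averages these. It was -0.03 (adjusted p = 0.75) with the GC and length correction, and was not called in 7 of 15 alternatives, among them each fit without a control or hairpin 1 library or the first hairpin 2 library, at -0.30 to -0.19. UNC5D was higher with hairpin 1 alone, at 0.44, adjusted p = 0.0027, with a hairpin difference of -0.55, adjusted p = 0.0009. Corrected for GC content and length, the hairpin 1 value was 0.07 (adjusted p = 0.5), and UNC5D was called lower with hairpin 2, -0.61 (adjusted p = 0.00014) from -0.11, and over both hairpins, -0.27 (adjusted p = 0.0083). NEO1, neogenin, did not pass (0.17, adjusted p = 0.073), though without the second control library it was 0.24 (adjusted p = 0.04).

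Hairpin 2 was compared directly with hairpin 1. The control level is not part of this contrast, but the control libraries share its filter, scaling and estimate of spread. The contrast called 31 of 60 members, 17 higher and 14 lower, beside the shares given for the plexins. Against a fold of 1.5, 12 members passed, beside 9.47% of all tested genes. The 12 were EFNB2, EPHB1, PLXNA2 and UNC5A, lower with hairpin 2, and EFNA2, EPHB3, PLXNB2, PLXNB3, PLXNC1, SEMA3C, SEMA3F and SEMA4F, higher with it. All 31 calls held in the same direction with the GC and length correction. Among the 31, 5 (EPHB1, EPHB3, PLXNB3, PLXNC1 and UNC5A) were called on opposite sides of the control. For EPHB1 and UNC5A both calls held in all alternatives but the test against a fold of 1.5. The hairpin 2 calls of EPHB3 and PLXNB3 ended in 6 and 7 of 16 alternatives, and that of PLXNC1 ended with the GC and length correction. The share of all tested genes called on opposite sides is not given here, so the count is not read as particular to the members. The 12 members not called against the control with either hairpin were EPHA1, EPHB2, EPHB6, NEO1, NTN3, NTN4, PLXNA1, PLXNB1, SEMA3B, SEMA5B, SEMA7A and SLIT1, and of these PLXNB1 differed between the hairpins (0.43, adjusted p = 0.047). BCAT1 itself was lower with hairpin 1 than with hairpin 2 (hairpin 2 minus hairpin 1 of 1.03, adjusted p = 7.3e-07); knockdown depth and other effects of a hairpin cannot be told apart in this design.

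**Figure D4:**
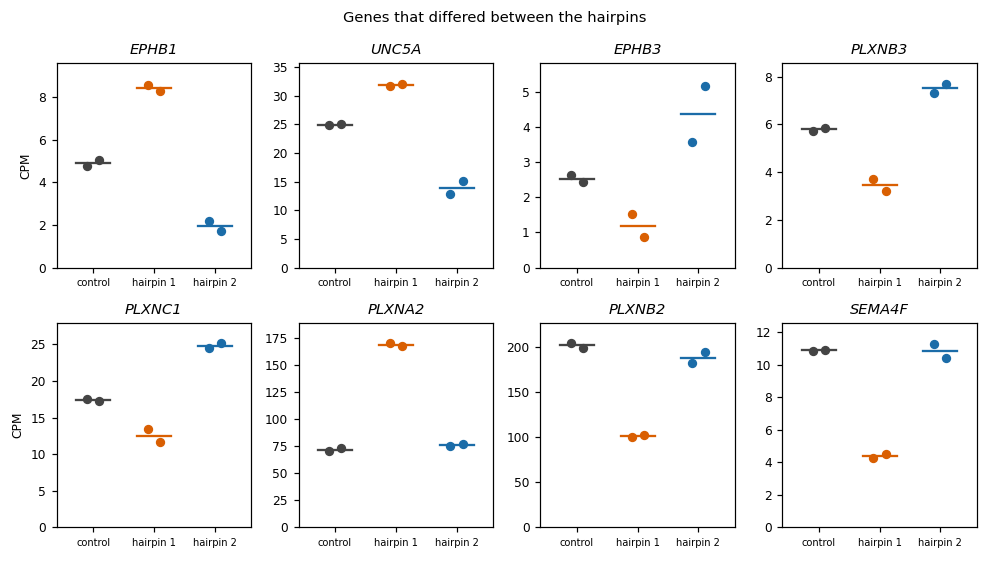
CPM in each library (points) and group mean (line) for 8 genes that differed between the hairpins, on axes that start at 0. EPHB1 and UNC5A are high with hairpin 1 and low with hairpin 2, and EPHB3, PLXNB3 and PLXNC1 show the reverse order around the control.

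Over both hairpins, co-receptors and cytoplasmic effectors of these receptors were more often called higher than lower. Of 83 such genes, 75 were tested. In all 50 were called, 35 higher and 15 lower, beside 50.0% of all tested genes and 58.2% of protein-coding ones. With the GC and length correction the split was 25 higher and 18 lower. With hairpin 2 it was 25 higher and 15 lower, and with the correction 20 higher and 23 lower. Their median over both hairpins was 0.17, against -0.20 for the ligands and receptors themselves. With the correction these medians were 0.02 and -0.13. Effectors of Eph and ephrin signalling gave 10 higher and 1 lower of 14, beside 23.6% higher and 26.4% lower among all tested genes, and 7 higher and 3 lower with the correction. Co-receptors and other cues gave 9 higher and 2 lower of 14 with hairpin 1, and 2 higher and 3 lower with hairpin 2. With the correction these counts were 8 higher and 2 lower, and 2 higher and 3 lower. Among all tested genes, without it, 24.2% were higher and 24.9% lower with hairpin 1, and 23.9% and 25.4% with hairpin 2.

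Among those with a mean of at least 1 CPM, the largest falls were in EVL, CDK5 and NGEF. EVL (ENSG00000196405, chr14:99971449-100144236, + strand), an actin polymerase partner downstream of Robo and netrin receptors, stood at 115 and 109 CPM in the control libraries, 63.8 and 62.7 with hairpin 1, and 64.4 and 69.7 with hairpin 2. Its knockdown libraries lay below both controls, at a log2 fold change of -0.78 ± 0.04 (SE), adjusted p = 4.3e-06. CDK5, a kinase of the SEMA3A pathway, was at -0.70, adjusted p = 7e-05, and at -0.31 (adjusted p = 0.0014) with the GC and length correction. NGEF, the EphA-linked exchange factor ephexin, was at -0.67, adjusted p = 0.025, and at -0.49 (adjusted p = 0.11) with it. Without the correction NGEF was called with hairpin 1 (-0.93, adjusted p = 0.014) and not with hairpin 2 (-0.41, adjusted p = 0.19). The largest rises were in FLRT1, NTNG1 and PIK3R1. PIK3R1 (ENSG00000145675, chr5:68215720-68301821, + strand), a regulatory subunit of PI 3-kinase, stood at 68.8 and 74.6 CPM in the control libraries, 159 and 160.5 with hairpin 1, and 112 and 106 with hairpin 2. The groups did not overlap, at a log2 fold change of 0.88 ± 0.04 (SE), adjusted p = 3.2e-06, or 0.48 (adjusted p = 2.9e-06) with the correction. FLRT1, a ligand of UNC5 receptors, was at 0.98, adjusted p = 0.0068, and its exons overlap annotated genes over 25.3% of their length. It was called with hairpin 1 (1.44, adjusted p = 0.0016) and not with hairpin 2 (0.52, adjusted p = 0.13). With the correction FLRT1 was called with hairpin 2 too, at 0.73 (adjusted p = 0.044). NTNG1, a membrane-anchored netrin relative, was high with hairpin 1 alone, at 0.555 and 0.540 CPM in the control libraries, 2.81 and 2.06 with hairpin 1, and 0.347 and 0.514 with hairpin 2, with a hairpin difference of -2.50, adjusted p = 0.00024, and over both hairpins its log2 fold change was 0.90, adjusted p = 0.028, or 0.66 (adjusted p = 0.1) with the correction.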

How the data were processed

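Total RNA of 6 SK-N-BE(2) libraries was extracted with TRIzol and prepared with a TruSeq kit, per the labels' protocols. The authors deposited raw counts, whole numbers for each Ensembl gene, in 1 table of 64252 rows, and every column was matched to a sample by its name. The submitters' processing notes name hg38, HISAT2 2.2.0 and StringTie. Not given in the sources used here are StringTie's version, the annotation release, counting options and use of strand. The labels do not say that replicates are separate cultures, so the p-values reflect the scatter of these libraries alone, which may be technical. Replicates differed by more than sampling noise, with a mean chi-square per gene of 5.87 to 8.63.

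Symbols came from a table that held 56105 of the IDs, and positions, exon lengths, GC content and overlaps from GENCODE 29 on hg38. Promoter windows are from RefSeq on GRCh38.p14. In R 4.3.3, edgeR 4.0.16 (filterByExpr with a minimum count of 10, TMM, a term per group, quasi-likelihood test) was fitted to 18734 genes in all 6 libraries, with Benjamini-Hochberg adjustment at 0.05, 3 residual degrees of freedom and a biological coefficient of variation of 8.66%. All tests are two-sided. Both hairpins share the control libraries. Groups have 2 libraries, whose values are given one by one.

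Named in full were up to 20 members with the largest called change over both hairpins (fold of at least 1.5, mean of at least 1 CPM), up to 6 more with the largest called hairpin difference, the 6 highest per length in the control, and 3 rises and 3 falls among the partner genes. The other members are given by their log2 fold change. Members and lists were chosen with earlier results of these data known. Some markers and partner genes are not reported here. The fit was tested on simulated counts. Alternatives were RLE scaling, no filter and a stricter filter (CPM of at least 1 in 2 libraries), DESeq2 1.42.0, limma-voom (limma 3.58.1), a replicate block, a correction for GC content and length (spline offsets with 5 degrees of freedom) with and without that block, only the groups compared, summed rows of shared symbols, a fold threshold of 1.5, and leaving out each library.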

Additional observations from a re-analysis of the deposited data

Results flagged for a closer look

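The log2 fold change of hairpin 2 minus hairpin 1 passed an adjusted p of 0.05 (edgeR quasi-likelihood test) for 31 members. 5 of them were called on opposite sides of the control, with differences of EPHB1 -2.10, EPHB3 1.85, UNC5A -1.19, PLXNB3 1.12 and PLXNC1 0.99. Of the others, those higher with hairpin 2 than with hairpin 1 had differences of EPHA2 0.23, EPHB4 0.17, EFNA2 1.17, EFNB1 0.18, PLXNA3 0.51, PLXNB1 0.43, PLXNB2 0.90, SEMA3C 0.81, SEMA3F 1.01, SEMA3G 1.23, SEMA4A 0.72, SEMA4F 1.30, SEMA4G 0.50 and SEMA6C 0.47. The members lower with hairpin 2 had differences of EFNB2 -2.37, UNC5B -0.39, UNC5C -0.47, UNC5D -0.55, NRP1 -0.24, PLXNA2 -1.15, PLXND1 -0.22, ROBO2 -0.65, ROBO4 -1.08, SEMA3A -0.19, SEMA3E -0.35 and SLIT2 -2.09. The calls for SEMA3A, SEMA4G and PLXNB1 ended in 7, 9 and 6 of 16 alternatives, that for SLIT2 in 4 of 15, and 22 of the 31 held in all of those run. Groups of 2 libraries were too small for a check of single outlying libraries.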

How the results depend on the processing

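The counts of called members and partner genes stayed within 1.5 times their values in all alternatives but the test against a fold of 1.5. That test left 6, 13, 7 and 12 members for both hairpins, hairpin 1, hairpin 2 and the hairpin difference, and 5, 14, 4 and 12 partner genes. Leaving out each library in turn gave 27 to 36, 35 to 41, 23 to 32 and 25 to 31 members in the same order, and 37 to 46, 46 to 51, 32 to 38 and 36 to 50 partner genes. A lone library of a group was then assumed to vary like the others. With the replicate block 37, 42, 28 and 28 members were called, but same-numbered replicates did not deviate together (correlations of 0, -0.04 and -0.03 across genes), so the samples share only a number. Where a call was made with or without it, the GC and length correction reversed the sign of SEMA3A (-0.313 over both hairpins, -0.13 and -0.496 with hairpin 1 and 2), SEMA6D (-0.143, -0.138 and -0.149), SEMA5A (-0.11, -0.009 and -0.21), UNC5D (-0.269), PLXNC1 (-0.27) and, with hairpin 2, ROBO2 (-0.167). Opposite calls were made for SEMA3A over both hairpins, SEMA5A with hairpin 2, and SEMA6D over both hairpins and with hairpin 2. With the replicate block added to it, SEMA5A was -0.109 and -0.008, and UNC5D and PLXNC1 -0.271, with the other reversed values the same to 3 decimals. Over both hairpins, 21 of the 37 calls held in every alternative other than the fold test, 5 higher and 16 lower, as did 28 of 43 with hairpin 1, 16 of 30 with hairpin 2 and 22 of 31 between hairpins. With 2 libraries per group and 3 residual degrees of freedom, a difference missed by the test may still exist, and the 9 untested genes lay at or near the limit of counting.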
